A study of Mus musculus with 10 samples.

Results

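The testis-specific serine kinases are a small family of protein kinases made in male germ cells, and the genes described here are Tssk1, Tssk2, Tssk3, Tssk4, Tssk5 and Tssk6, chosen by gene symbol. All 6 were present among the 15507 genes of the deposited table, and all 6 passed the filter on low values with the 15389 genes tested. The libraries came from germ cells dispersed from the testes of 5 wild type (WT) mice and 5 homozygous knock-in (KI) mice, with 1 library of poly(A) RNA per mouse. In the KI mice a human GRTH gene bearing an arginine-to-histidine mutation stands in place of mouse Ddx25, which the WT mice keep. The sample labels gave no age, and the methods of the study gave both genotypes the same age in days. Mice of that age are young adults. GRTH is an RNA helicase of germ cells and Leydig cells, and the comparison asked how RNA levels differ when the mutated human form replaces it. The preparations hold germ cells of several stages together. From earlier work, the paper reports that KI testes lack elongating spermatids and sperm, because round spermatids do not elongate. A lower value may reflect fewer cells of a type or less RNA per cell, and in bulk samples these cannot be told apart.

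Tssk genes are transcribed mainly after meiosis, in spermatids, the haploid cells that elongate and condense their chromatin to become sperm. Their products phosphorylate proteins of the spermatid on serine and threonine and are needed for male fertility in several mouse models. Within the kinase tree the family lies near the AMPK-related kinases.

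Values are normalized counts, that is, reads of a gene divided by the size factor of the library. The libraries held 13323024 to 16422347 reads on genes in WT and 12722086 to 15500582 in KI. The smallest number of reads behind any Tssk value was 174, for Tssk5 in WT library 2. Fold changes are KI against WT on the log2(normalized count + 1) scale, tested by limma with adjustment over all genes tested. Calls required an adjusted p below 0.05 together with a rise or fall of 1.5-fold or more.

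Ddx25, the targeted gene, had normalized counts of 7615, 7782, 5198, 11101 and 9458 in WT libraries 1 to 5. In KI libraries 1 to 5 they were 146, 194, 161, 2.88 and 1.84. The values of KI libraries 4 and 5 rest on 3 and 2 reads. Every KI library lay far below every WT library, and KI libraries 4 and 5 lay below the other KI libraries. These reads were counted on the mouse gene, and the level of the human gene was not measured. Whether any of them came from the human gene was not tested.

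The germ cell preparations were compared with marker lists. No marker of any list was at 0 in any library. Markers of spermatogonia summed to 4712 ± 634 normalized counts in WT and 4627 ± 731 in KI (SD, n = 5 each), with Dazl the most abundant. Of these, 0 of 9 were called, where 14.4% of all genes tested were. Under scaling to library totals or to round spermatid markers 1 was called. Markers of spermatocytes summed to 30302 ± 3744 in WT and 27682 ± 2207 in KI (SD, n = 5 each), with Piwil1 the most abundant. Here 0 of 10 were called, against the same 14.4% of all genes. Within libraries 4 and 5 alone 2 were called, where 1087 of all 15389 genes were called lower and 472 higher. Those of other testis cells were present too and are given after the results.

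Of the 6 Tssk genes 3 were called, all lower in KI, where 14.4% of all genes tested were called and 8.22% were called lower. The 3 were Tssk6, Tssk3 and Tssk2, in order of the size of the fall. Tssk1 and Tssk4 had an adjusted p under 0.05 with a smaller fold change, but not under scaling to library totals or to marker lists, and this makes 5 of 6 genes under that threshold alone, against 22.9% of all genes. Tssk5 did not pass either threshold. WT and KI values did not overlap for 5 of 6 Tssk genes, and for 17.7% of all genes tested.

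Tssk6, a kinase needed for chromatin condensation in spermatids, had normalized counts of 9138, 10618, 14897, 13093 and 10077 in WT libraries 1 to 5. In KI libraries 1 to 5 they were 1265, 2161, 1938, 1154 and 888. The highest KI library lay far below the lowest WT library, and the KI libraries themselves spread over more than a factor of 2. The log2 fold change was −3.02 (SE 0.21, limma adjusted p = 1.42e-07), or 12.3% of the WT level. It was the 27th lowest fold change among all genes tested. Within libraries 1 to 3 the log2 fold change was −2.70 and within libraries 4 and 5 it was −3.50, both past the call rule. The difference of the fall between these sets of libraries was not tested. No sample label names these sets, and the Ddx25 values divide the KI libraries in the same way.

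Tssk3 had normalized counts of 3333, 3485, 3651, 2577 and 2579 in WT libraries 1 to 5. The KI libraries, in the same order, had 682, 740, 766, 683 and 511. WT libraries 4 and 5 lay below WT libraries 1 to 3, and every KI library lay below all of them. The log2 fold change was −2.20 (SE 0.13, limma adjusted p = 3.88e-08), or 21.7% of the WT level, the 96th lowest of all genes tested. It was −2.26 within libraries 1 to 3 and −2.12 within libraries 4 and 5.

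Tssk2, the downstream member of a tandem pair with Tssk1, had normalized counts of 9239, 10204, 10849, 10205 and 8093 in WT libraries 1 to 5. Those of KI libraries 1 to 5 were 4850, 5765, 5461, 4412 and 2984. The genotypes did not overlap, and KI library 5 was the lowest. The log2 fold change was −1.08 (SE 0.15, limma adjusted p = 1.21e-04), or 47.4% of the WT level. It was −0.91 within libraries 1 to 3 and −1.32 within libraries 4 and 5.

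Tssk1 had normalized counts of 5919, 6575, 6296, 6274 and 5470 in WT libraries 1 to 5. In KI libraries 1 to 5 they were 4844, 5115, 5108, 4841 and 3262. All KI libraries lay below all WT libraries, KI library 5 by far the most. The log2 fold change was −0.41 (SE 0.12, limma adjusted p = 0.0220), a fold change of 1.33 that is under the call rule. Without KI library 5 it was −0.29 (limma adjusted p = 0.0246). Without WT library 2 the adjusted p of Tssk1 was 0.0565, and within libraries 4 and 5 it was 0.0694.

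Tssk4 had normalized counts of 2028, 2115, 1830, 2368 and 2128 in WT libraries 1 to 5. The counts of KI libraries 1 to 5 were 1616, 1625, 1587, 1714 and 1244. The genotypes did not overlap, but the highest KI value came close to the lowest WT value. The log2 fold change was −0.43 (SE 0.10, limma adjusted p = 0.00648), a fold change of 1.35. Within libraries 4 and 5 it was −0.62 (limma adjusted p = 0.0317), past the call rule, and within libraries 1 to 3 it was −0.30.

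Tssk5, the member with the lowest counts, had normalized counts of 241, 201, 228, 296 and 267 in WT libraries 1 to 5. In KI libraries 1 to 5 they were 287, 302, 295, 316 and 260. The genotypes overlapped. The log2 fold change was 0.25 (SE 0.12, limma adjusted p = 0.137), with 0.40 (limma adjusted p = 0.0128) within libraries 1 to 3 and 0.03 (limma adjusted p = 0.943) within libraries 4 and 5, neither past the call rule.

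**Figure D1:**
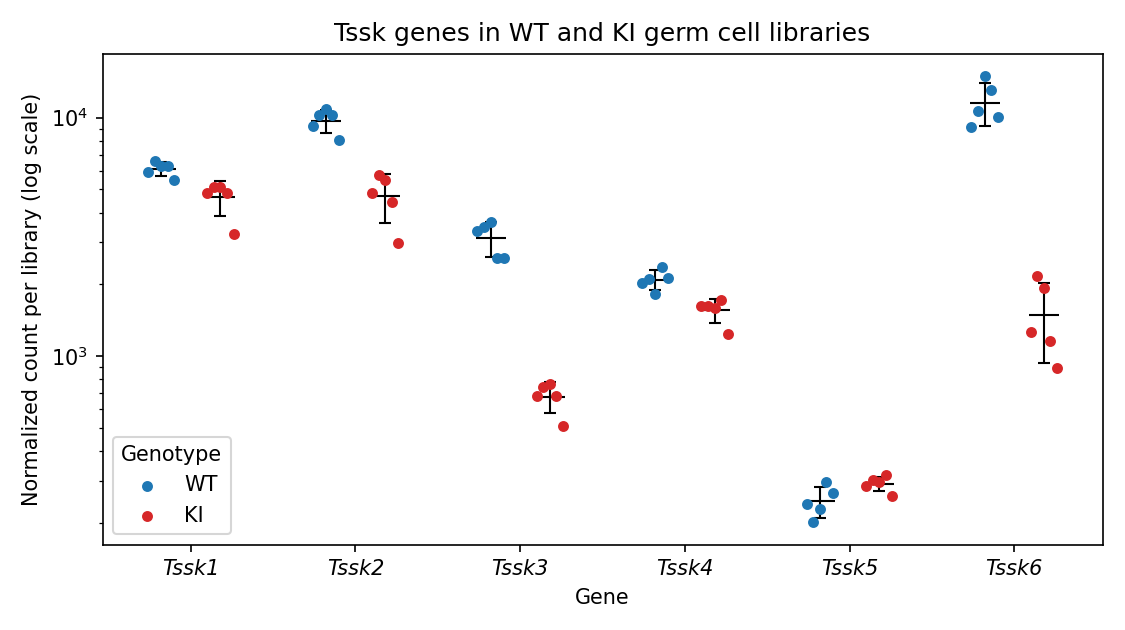
Normalized count of each Tssk gene in each library on a log axis, with blue points for the 5 WT and red points for the 5 KI libraries, black dashes for means and bars for the SD. The genotypes are apart for 5 of 6 genes, widest for Tssk6, and overlap for Tssk5.

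The scaling between libraries moved these values. Scaling to library totals raised the median log2 fold change of all genes by 0.23, and scaling to round spermatid markers raised it by 0.32. The values of the Tssk genes moved with it, because scaling shifts all genes alike. No Tssk gene changed direction under these scalings or under scaling to spermatocyte markers. Under round spermatid scaling the log2 fold changes themselves were −2.69 for Tssk6, −1.88 for Tssk3 and −0.75 for Tssk2, and the same 3 genes were called. Those of Tssk1 and Tssk4 were −0.09 and −0.11 (limma adjusted p = 0.687 and 0.649), and that of Tssk5 was 0.58 (limma adjusted p = 0.0426), just under the fold change threshold. Under scaling to library totals the limma adjusted p was 0.234 for Tssk1, 0.141 for Tssk4 and 0.00981 for Tssk5, and under scaling to spermatocyte markers it was 0.246, 0.240 and 0.251.

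Levels of different genes were compared as normalized counts per kilobase of exon, with lengths of 1451, 1388, 1034, 1420, 1514 and 1335 bases for Tssk1 to Tssk6. GENCODE gives longer exons for Tssk1, with 3700 bases, for Tssk3, with 1280, and for Tssk5, with 1518. The order, the summed level and the shares depend on this choice of length. In WT the order of mean levels per kilobase was Tssk6 with 8663 ± 1774, Tssk2 with 7001 ± 774, Tssk1 with 4209 ± 293, Tssk3 with 3022 ± 495, Tssk4 with 1474 ± 137 and Tssk5 with 163 ± 24.0 (SD, n = 5 each). The ranges of Tssk6 and Tssk2 overlapped across WT libraries, although Tssk6 was the higher in 5 of 5, and no other neighbours in this order overlapped. In KI the order was Tssk2 with 3382 ± 786, Tssk1 with 3193 ± 537, Tssk6 with 1109 ± 406, Tssk4 with 1096 ± 128, Tssk3 with 654 ± 96.2 and Tssk5 with 193 ± 13.7 (SD, n = 5 each). In KI, Tssk2 and Tssk1 overlapped and held this order in 3 of 5 libraries, and Tssk6 and Tssk4 overlapped and held it in 2 of 5. The other neighbours did not overlap. The summed level of the 6 genes per kilobase was 24532 ± 2774 in WT and 9628 ± 1867 in KI (SD, n = 5 each), 39.2% of the WT mean.

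As a share of the summed level per kilobase, Tssk6 made up 35.1% ± 3.78 in WT and 11.3% ± 2.31 in KI (SD, n = 5 each). Tssk3 made up 12.4% ± 1.83 in WT and 6.85% ± 0.428 in KI (SD, n = 5 each). The shares of the other members were larger in KI. That of Tssk1 was 17.2% ± 1.23 in WT and 33.3% ± 1.71 in KI, and that of Tssk2 was 28.6% ± 1.09 and 34.9% ± 1.71 (SD, n = 5 each). That of Tssk4 was 6.08% ± 0.930 in WT and 11.6% ± 1.45 in KI, and that of Tssk5 was 0.672% ± 0.133 and 2.06% ± 0.355 (SD, n = 5 each). Shares of WT and KI libraries did not overlap for any of the 6 genes (exact two-sided permutation test, p = 0.00794 for each, also after adjustment over the 6). This is the smallest p that the test can give with 5 against 5 libraries. The shares were not tested in pairs. Shares add up to the whole, so a fall of 1 member raises the others.

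**Figure D2:**
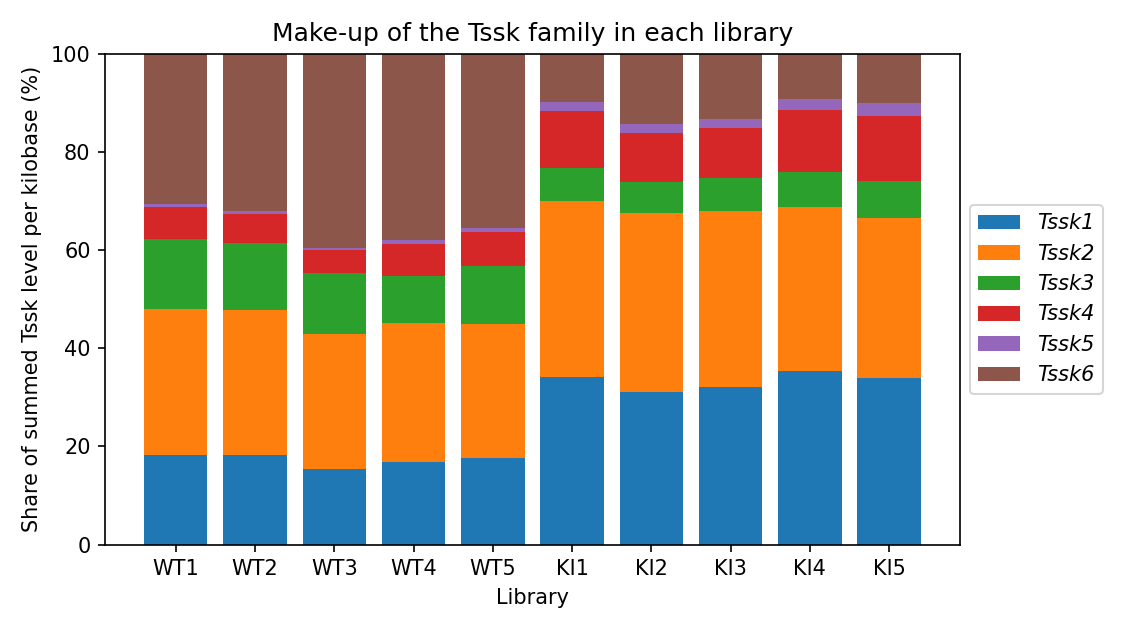
Share of each Tssk gene in the summed Tssk level per kilobase of exon, in percent, with 1 stacked bar for each of the 10 libraries. Tssk6 takes 30.6% to 39.5% in the WT libraries and 9.14% to 14.3% in the KI libraries.

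The paralogs were compared with each other by the log2 ratio of their normalized counts in each library, which does not depend on scaling between libraries. Of 15 pairs, 14 differed between genotypes after adjustment over the 15 (exact two-sided permutation test), and the ratios of 13 pairs did not overlap. In a paired test by library number 0 of 15 pairs passed, as the 14 had the smallest p that 5 pairs can give (exact sign-flip p = 0.0625, adjusted p = 0.0670). The neighbours Tssk1 and Tssk2 had a log2 ratio of −0.67 ± 0.08 in WT and −0.00 ± 0.14 in KI (SD, n = 5 each), a difference of 0.66 (exact permutation p = 0.00794, adjusted p = 0.00916). These ratios did not overlap, and Tssk2 had the larger fall. The log2 ratio of Tssk3 to Tssk6 was −1.88 ± 0.35 in WT and −1.07 ± 0.35 in KI (SD, n = 5 each), a difference of 0.82 (exact permutation p = 0.0159, adjusted p = 0.0170), and these ratios overlapped. The fold change of Tssk6 was the lower of the 2. That difference was 0.44 within libraries 1 to 3 and 1.38 within libraries 4 and 5. The pair that did not pass was Tssk1 and Tssk4, whose log2 ratio was 1.55 ± 0.17 in WT and 1.56 ± 0.12 in KI (SD, n = 5 each, exact permutation p = 0.865).

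Positions are those of the deposited table on mm10. Tssk1 (chr16:17894203-17895653) and Tssk2 (chr16:17898637-17900024) lie in tandem on the plus strand, 2983 bases apart, each as 1 exon. Tssk6 (chr8:69902184-69903518, plus strand) is also a gene of 1 exon. Tssk3 (chr4:129489008-129490770, minus strand) has 2 exons, Tssk4 (chr14:55650184-55652539, plus strand) has 4 and Tssk5 (chr15:76371958-76374938, minus strand) has 8. The coding sequences of Tssk1 and Tssk2 were 78.2% identical, and those of the other 14 pairs 51.5% to 57.8%. Tssk1 and Tssk2 transcripts share an unbroken run of 113 bases, and the longest run shared by any other pair was 14 bases. With overlapping positions counted, they share 125 stretches of 50 bases, more than that run alone holds. The methods of the study gave paired reads longer than the longest shared run, so no full-length read lies wholly within an unbroken shared stretch. Reads shortened by trimming could lie within one. The assignment of reads between Tssk1 and Tssk2 was not tested.

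Genes beside the Tssk genes were read from the same table. Tssk6 overlaps Ndufa13, a subunit gene of respiratory complex I on the other strand, and the counting was not stated to use strand, so reads of the shared stretch cannot be told apart. Ndufa13 had 790 ± 71.1 normalized counts in WT and 609 ± 66.0 in KI (SD, n = 5 each), with a log2 fold change of −0.38. The other neighbours of Tssk6, Cilp2 and Gatad2a, had log2 fold changes of 0.04 and 0.08. Beside the tandem pair, Dgcr2 and Ess2 had −0.23 and 0.01. Beside Tssk3, Bsdc1 had −0.24 and Fam229a −0.64 (limma adjusted p = 0.0310, called). Beside Tssk4, Tm9sf1 had 0.34 and Mdp1 0.24, and beside Tssk5, Hgh1 had 0.14 and Mroh1 −0.07. Fam229a was the only called gene among these neighbours other than Tssk2, and GENCODE places Dgcr2 across Tssk1, and Yjefn3 beside Ndufa13 across Tssk6, all on the other strand.

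The promoters of Tssk1, Tssk2, Tssk3, Tssk4 and Tssk6 were matched in a file of RefSeq promoters (GRCm38.p6), and that of Tssk5 was not in the file. The 250 bases before each start were searched on both strands for the cyclic AMP response element TGACGTCA, the element bound by CREB and CREM, and for its shorter core TGACG, which the full element contains. TGACGTCA was in 0 of 5 Tssk promoters and in 1.55% of all 32851 promoters. TGACG was in 1 of 5, that of Tssk6, 73 bases before the start, and in 17.8% of all promoters. After the sequences had been read, TGACTTCA was added to the search, and it was in 2 of 5, Tssk1 and Tssk2, and in 1.31% of all promoters. It lay 48 bases before the start of Tssk1, with a second match on the opposite strand 35 bases before it, and 58 bases before the start of Tssk2. The promoters of Tssk1 and Tssk2 also share the run gacagtgctga. The 100 bases before the start are shown for the tandem pair and for Tssk6 and Tssk3, which had the largest falls, with matches to the searched letters in capitals. They are chr16:17894103-17894202, chr16:17898537-17898636 and chr8:69902084-69902183 on the plus strand and chr4:129490771-129490870 on the minus strand. A match describes letters only.
Tssk1: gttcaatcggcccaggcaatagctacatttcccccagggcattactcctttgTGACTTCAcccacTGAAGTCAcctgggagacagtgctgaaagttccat
Tssk2: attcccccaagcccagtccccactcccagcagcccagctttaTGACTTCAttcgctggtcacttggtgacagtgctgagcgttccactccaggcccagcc
Tssk6: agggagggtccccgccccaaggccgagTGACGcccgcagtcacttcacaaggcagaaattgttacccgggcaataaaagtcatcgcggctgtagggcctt
Tssk3: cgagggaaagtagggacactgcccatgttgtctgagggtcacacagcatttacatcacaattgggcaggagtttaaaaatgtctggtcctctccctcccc

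Proteins that bind TSSKs or are phosphorylated by them were followed as a list of 10 genes. Of these, 4 were called lower in KI and 0 higher, where 8.22% of all genes tested were called lower. The median log2 fold change was −0.25, against 0.03 over all genes tested. Tsks, a substrate of TSSK1 and TSSK2, had 6303 ± 678 normalized counts in WT and 3284 ± 324 in KI (SD, n = 5 each), with a log2 fold change of −0.94 (limma adjusted p = 8.34e-06). Tsacc, a co-chaperone that activates TSSK proteins, had a log2 fold change of −0.72 (limma adjusted p = 0.00310). Odf2, an outer dense fiber gene, had −0.89 (limma adjusted p = 1.15e-04) and Crem, a transcription factor of spermatids, −0.60 (limma adjusted p = 0.00239). Spag16 had −0.34 (limma adjusted p = 0.0134), under the fold change threshold, but −0.11, −0.24 and −0.02 under scaling to library totals, to spermatocyte markers and to round spermatid markers (limma adjusted p = 0.257, 0.367 and 0.948), and −0.12 within libraries 4 and 5 (limma adjusted p = 0.652). Hsp90aa1, Hsp90ab1, Ppp1cc, H2afx and Creb1 did not pass the call rule and had log2 fold changes of −0.15, 0.23, 0.07, 0.05 and −0.16. With the replicate block the limma adjusted p of Hsp90ab1 was 0.0267. Under scaling to library totals Hsp90ab1 had 0.46 and H2afx 0.27 (limma adjusted p = 0.00171 and 0.0367), both under the fold change threshold. The number called was 3 without WT library 1 or WT library 2, where Crem had −0.57 and −0.53. It was 2 without KI library 5, where Tsacc had −0.57 and Crem −0.51. Under scaling to library totals it was 2, under scaling to spermatocyte markers 3, under scaling to round spermatid markers 1 and within libraries 4 and 5 it was 3. Odf2 had −0.57 under round spermatid scaling and −0.56 within libraries 4 and 5 (limma adjusted p = 0.0882 and 0.0639). Under round spermatid scaling Tsacc had −0.40 and Crem −0.28 (limma adjusted p = 0.0985 and 0.225). Under scaling to library totals they had −0.49 and −0.37, and under scaling to spermatocyte markers Crem had −0.50, all under the fold change threshold.

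Among 18 AMPK-related kinases and their upstream kinase, the nearest relatives of the family, 2 were called lower and 0 higher, with a median log2 fold change of 0.06. These are 11.1% of the list, where 14.4% of all genes tested were called and 8.22% were called lower. They were Sik1 (−0.61, limma adjusted p = 0.00239) and Sik2 (−0.61, limma adjusted p = 5.47e-04), and Stk11, the most abundant, had −0.11. The number called was 1 without WT library 3, without WT library 5 or without KI library 3, and 1 under scaling to library totals or to round spermatid markers. It was 0 under scaling to spermatocyte markers and within libraries 4 and 5. Of 18 other germ cell kinases in the table, 5 were called lower and 1 higher, with a median of −0.13, where 8.22% of all genes tested were called lower and 6.13% higher. In place of these 6 calls there were 3 under scaling to library totals, under scaling to round spermatid markers and within libraries 4 and 5, and 4 under scaling to spermatocyte markers. Camk4, a calmodulin-dependent kinase of spermatids, had a log2 fold change of −1.35 (limma adjusted p = 1.67e-05), Cdk16 had −1.14 (limma adjusted p = 1.03e-05), and Tesk1, the most abundant, had −0.39 without passing. The log2 fold changes of Tssk6 and Tssk3 were lower than that of any called kinase of these lists.

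Genes whose pattern was most like each Tssk gene were taken from 10526 other tested genes with a mean of at least 100, by the root mean square difference of log2 values centred on the WT mean over 10 libraries. For Tssk6 they were Azin2 and Car2, with differences of 0.25 and 0.26 and log2 fold changes of −3.23 and −3.15. For Tssk3 they were Tnp2, a transition protein of spermatid chromatin, and Gsg1, at 0.11 and 0.12, with log2 fold changes of −2.27 and −2.06. For Tssk2 they were Lrrc51 and 1700015F17Rik, at 0.06 and 0.07. For Tssk1 they were Tsc22d4 and Cyp4f39 at 0.05 and 0.07, for Tssk4 1700125H20Rik and 2810029C07Rik at 0.07 and 0.08, and for Tssk5 Chmp7 and Sirt3, both at 0.08. No Tssk gene was among the 2 nearest of another, and the smallest difference within the family was 0.13, between Tssk1 and Tssk4.

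Markers of other cells and stages moved between the same libraries. All 11 markers of elongating spermatids were called lower, where 8.22% of all genes tested were, with a median log2 fold change of −2.50. They summed to 391902, 437588, 469748, 276050 and 265266 normalized counts in WT libraries 1 to 5 and to 68740, 76764, 76084, 59418 and 39371 in KI libraries 1 to 5. Prm2 was the most abundant, with a log2 fold change of −3.30, and that of Prm1 was −2.82. The paper's scheme has Tnp2 and Prm2 mRNAs already present in WT round spermatids, so this list does not mark elongating cells alone. The sums were lower in WT libraries 4 and 5 than in WT libraries 1 to 3, as Tssk3 was, whereas Tssk6 was not. Of 10 markers of round spermatids 0 were called by limma, where 14.4% of all genes tested were, with a median of −0.29. Where 7140 of the 15389 genes tested had a log2 fold change below 0, all 10 of these markers did. Their sums were 28747, 29142, 26502, 28818 and 25092 in WT libraries 1 to 5 and 24627, 25734, 25383, 20113 and 15051 in KI libraries 1 to 5. Zpbp2 was the most abundant, and KI library 5 had the lowest sum of round spermatid markers, as it had the lowest value of each of the 6 Tssk genes among the KI libraries. The number of round spermatid markers called was 1 on leaving out WT library 3, 1 on leaving out either of KI libraries 1 and 2, 2 on leaving out KI library 3, and 5 within libraries 4 and 5. The part of these stages in the fall of Tssk genes was not tested beyond the scaling to round spermatid markers.

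Sertoli cell markers summed to 10674 ± 2050 in WT and 10952 ± 2315 in KI (SD, n = 5 each), with Clu the most abundant. Of these, 0 of 9 were called, where 14.4% of all genes tested were. Under scaling to library totals or to round spermatid markers 1 was called, and 1 within libraries 1 to 3. Leydig cell markers summed to 13875 ± 3583 in WT and 23311 ± 4576 in KI (SD, n = 5 each), and 4 of 7 were called higher, where 6.13% of all genes tested were, among them Insl3, the most abundant, and Cyp17a1, with log2 fold changes of 0.82 and 0.70. The number of Leydig cell markers called was 1 without WT library 1, WT library 3 or KI library 5, 2 without WT library 4, 7 without WT library 2, 7 under scaling to library totals or to round spermatid markers, and 1 within libraries 4 and 5. Macrophage markers summed to 804 ± 58.7 in WT and 1081 ± 141 in KI (SD, n = 5 each), and 5 of 8 were called higher, against the same 6.13% of all genes, C1qa and Cd68 the most with 0.90 and 0.82, while Mrc1 was the most abundant. It was 3 markers without WT library 4, WT library 5 or KI library 5, 3 within libraries 4 and 5, 3 with a pseudocount of 10 and 1 within libraries 1 to 3. Of 6 peritubular myoid markers 5 were tested, 2 were called higher and 1 lower, where 6.13% and 8.22% of all genes were, and 1 was called within libraries 4 and 5. Their sums were 3493 ± 668 in WT and 1486 ± 213 in KI (SD, n = 5 each). Actg2 held most of that sum, with 3325 ± 686 in WT and 1279 ± 225 in KI (SD, n = 5 each). Its log2 fold change was −1.37, while that of Des was 1.04. The sum thus follows Actg2 and does not describe the 2 markers called higher. The part of these cells in the Tssk values was not tested.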

How the data were processed

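RNA of germ cells from 5 WT and 5 KI mice was analysed, grouped by the genotype in the sample labels, with 1 library per mouse. The deposited signal per gene was made by the authors with STAR on mm10, counts on RefSeq genes in Partek and DESeq2 size factors, by which each library was divided. Dividing by the value of 1 read returned whole reads, within 0.05 of a read, for 100% of the values under 5000 reads. Columns left without a library numbered 0.

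Differences were tested with limma 3.58.1 in R 4.3.3 with a variance trend on log2(value + 1), over genes passing filterByExpr of edgeR 4.0.16 by genotype on recovered reads, with Benjamini-Hochberg adjustment. edgeR's quasi-likelihood test and DESeq2 1.42.0 on the recovered reads were alternatives and called 1293 and 1291 genes lower and 950 and 1018 higher. Ratios and shares were compared by exact two-sided permutation over the libraries. Exon lengths are the spans in the table less the introns of GENCODE vM21, on the same build. A value of 3 reads was taken as the floor, which covers counting error only. The functions were tested on simulated data.

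With the genotype means taken out, the correlation between the WT and the KI library of each number, 1 to 5, was 0.306, 0.105, 0.280, 0.216 and 0.462. The mean correlation of each WT library with the KI libraries of other numbers was −0.042, −0.012, −0.012, −0.080 and −0.189. No label states a pairing. As each correlation of the same number was above 0.1, the numbers were taken to pair the libraries, and the replicate block was fitted as an alternative. Whether the difference between libraries 1 to 3 and libraries 4 and 5 gives these correlations was not tested. Replicates differed by a chi-square of 2.66 to 46.7 per degree of freedom, so none was a copy of another.

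The members and the lists were chosen with earlier results of these data known. Lists of TSSK partners and substrates, of AMPK-related and other germ cell kinases and of cell type markers were written from general knowledge. Of the other germ cell kinases, Nek5 and Wee2 were not used here because the table gave no row under those names. Genes named are Ddx25, the Tssk genes, all partners and substrates, the most abundant member and up to 2 called members with the largest fold change of each other list, the neighbouring and overlapping genes of each Tssk gene, and the 2 genes most like it. Alternatives were other pseudocounts, filters, tests and scalings, the replicate block, a term for the library sets, each set alone and leaving out each library.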

Additional observations from a re-analysis of the deposited data

Results flagged for a closer look

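In KI library 5 the normalized count of Tssk1 was 3262, while the other KI libraries lay between 4841 and 5115, and the gap to the nearest of them was 0.852 of the range of the 5 libraries. In the same library the normalized count of Tssk4 was 1244, while the other KI libraries lay between 1587 and 1714, with a gap of 0.729 of the range. Both were below the other KI libraries by more than Dixon's critical ratio of 0.71 for 5 samples. They were the 2 far-off values among 66 groups of 5 libraries examined, and chance alone marks about 1 in 20 groups. Without KI library 5 the log2 fold changes were −0.29 for Tssk1 and −0.35 for Tssk4 (limma adjusted p = 0.0246 and 0.00996).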

How the results depend on the processing

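Tssk2, Tssk3 and Tssk6 passed the call rule in each alternative tried, and Tssk5 and Tssk1 in none. Tssk4 passed within libraries 4 and 5 alone, with a log2 fold change of −0.62, which made 4 Tssk genes there in place of 3. Leaving out each library in turn gave −3.18 to −2.85 for Tssk6, −2.27 to −2.11 for Tssk3, −1.16 to −0.92 for Tssk2, −0.46 to −0.29 for Tssk1, −0.48 to −0.35 for Tssk4 and 0.18 to 0.32 for Tssk5. With the replicate block 1343 genes were called lower and 1067 higher, in place of 1265 and 944, and the fold changes of the Tssk genes were as without it. The block changed no Tssk call. For the ratios of paralogs the paired sign-flip test cannot give a p below 0.0625 with 5 pairs, so 0 of 15 passed in place of 14.

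Scaling to library totals called 789 genes lower and 2145 higher (73.1% higher in place of 42.7%). It called 2 TSSK partners and substrates, 1 AMPK-related kinase and 3 other germ cell kinases, and turned Hsp90aa1 and Creb1 to 0.080 and 0.070. Scaling to round spermatid markers called 638 genes lower and 2372 higher (78.8% higher), with 1, 1 and 3 members of those lists, and turned Hsp90aa1 and Creb1 to 0.18 and 0.17. Scaling to spermatocyte markers called 0 AMPK-related kinases. Libraries 4 and 5 alone called 472 genes higher, 0 AMPK-related kinases and 3 other kinases, with Hsp90aa1 at 0.13, Ppp1cc at −0.32 and H2afx at −0.0105. Within libraries 1 to 3 Hsp90aa1 had −0.34 and Ppp1cc 0.33 (limma adjusted p = 0.0230 and 0.00728), both under the fold change threshold. The cause was not tested.

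Between libraries 1 to 3 alone and 4 and 5 alone, the difference of log2 fold change was 1.34 and 0.80 for Tssk2 against Tssk3 and 0.44 and 1.38 for Tssk3 against Tssk6. In libraries 4 and 5 it was 1.56 for Tssk1 against Tssk3, 2.94 for Tssk1 against Tssk6, 2.18 for Tssk2 against Tssk6 and −1.504 for Tssk3 against Tssk4. The share of Tssk3 moved by −6.88 percentage points in the first set and −3.44 in the second, in which Tssk6 moved by −27.1. These sets are too small for the permutation test to pass. Leaving out each library in turn gave −0.0299 to 0.0752 for Tssk1 against Tssk4 and −0.0282 to 0.213 for Ppp1cc, with 2 to 4 partners and 1 to 2 AMPK-related kinases called.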
